A study of Mus musculus with 8 samples.

Results

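Peptidyl-prolyl isomerases were examined in RNA-seq data from mouse bone mesenchymal stem cells (MSCs), the stromal cells that can form bone, cartilage and fat. The 10 genes described are 5 cyclophilins (Ppia, Ppib, Ppic, Ppid and Ppif) and 5 FK506-binding proteins of the secretory pathway (Fkbp7, Fkbp9, Fkbp10, Fkbp11 and Fkbp14), out of 53465 genes in the count table. They were chosen by family with the comparison of oxygen levels in view, so their differences between oxygen levels are a description, no p-value is given for a member, and the number past the threshold of the fit across all genes is set beside the share of all genes only. All 10 were among the 14369 genes that passed the filter on low counts.

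Both groups came from wild-type male C57BL/6 N mice aged 3 to 5 months. Cells grown out of bone at 2% oxygen were sorted as CD45-/TER-119-/Sca-1+/CD140a+ cells, on day 12 of culture per the labels, and the sorted population was divided. The hypoxia group (n = 4) stayed at 2% oxygen and the normoxia group (n = 4) was moved to 21%. Hypoxia is thus the unshifted condition, and early growth at 2% oxygen is common to both. Experiments were done days after the move according to the paper, which aimed at long-term effects of normoxia. Per the paper, replicates were biologically independent, while the labels number them without tying them to animals.

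Peptidyl-prolyl isomerases speed the rotation between the cis and trans forms of the peptide bond before proline. That rotation limits how fast the proline-rich collagen triple helix folds, and cells that secrete much collagen hold several of these enzymes in the endoplasmic reticulum (ER). Cyclophilins are the targets of cyclosporin A, FKBPs bind FK506 and rapamycin, and inherited loss of PPIB or FKBP10 causes brittle bone disease while loss of FKBP14 causes a form of Ehlers-Danlos syndrome.

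Upstream sequence is shown for the cytosolic and ER cyclophilins whose levels were both lower in normoxia, Ppia and Ppib, and for Fkbp9, an abundant member whose level hardly moved. Capitals mark ACGTG, a form of the core letters of the hypoxia response element, or its reverse complement CACGT. Other forms of that core were not searched for and are not marked. The sequences are RefSeq's for build GRCm38.p6, plus strand, and cover the 250 bases before the annotated start at chr11:6415617-6415866 for Ppia, chr9:66059919-66060168 for Ppib and chr6:56831809-56832058 for Fkbp9.
Ppia: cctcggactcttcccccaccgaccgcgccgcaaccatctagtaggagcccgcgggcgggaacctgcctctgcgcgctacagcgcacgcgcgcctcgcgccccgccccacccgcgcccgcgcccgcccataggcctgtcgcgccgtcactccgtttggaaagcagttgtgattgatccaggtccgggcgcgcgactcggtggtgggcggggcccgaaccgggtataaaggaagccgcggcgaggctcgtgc
Ppib: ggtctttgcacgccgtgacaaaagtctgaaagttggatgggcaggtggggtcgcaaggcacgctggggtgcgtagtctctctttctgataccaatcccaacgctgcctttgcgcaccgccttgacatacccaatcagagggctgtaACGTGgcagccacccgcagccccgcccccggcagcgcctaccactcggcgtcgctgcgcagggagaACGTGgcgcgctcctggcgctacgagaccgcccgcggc
Fkbp9: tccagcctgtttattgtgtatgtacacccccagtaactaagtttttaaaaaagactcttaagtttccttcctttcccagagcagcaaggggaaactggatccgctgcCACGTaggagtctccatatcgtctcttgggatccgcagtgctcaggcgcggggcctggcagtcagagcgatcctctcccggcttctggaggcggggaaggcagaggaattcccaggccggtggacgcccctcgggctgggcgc

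In windows of 250 bases before and 50 after the start, ACGTG on either strand was present in 19.6% of all 32851 windows, and in 8.21% at least 2 times. A CACGTG site, which reads the same on both strands, was counted 2 times. For the members, any window on chromosome 18, where Ppic lies, was left out, which was not done for the shares over all windows. Windows were used for 7 of the 10 genes, with 9 windows in all, and none for Ppic, Ppid and Fkbp10. Of these 7 genes, 4 held the motif in any of their windows, a count by gene where the share above is by window. The Ppib window held it 2 times, with first bases 104 and 38 bases before the start, the Fkbp9 window once, 143 bases before the start, and the Ppia window did not hold it. Fkbp11 and Fkbp14 have 2 windows each, of which one held the motif. These are matches of letters, and no binding was measured in these data. The Ppia and Ppib windows were rich in G and C, at 70.7% and 67.7%, against a median of 52.7% over all windows.

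CPM are read counts scaled by TMM (trimmed mean of M values) to a common library size. Levels were compared between genes as CPM per kb of the principal transcript. Ppia, cyclophilin A, the abundant cytosolic cyclophilin, was highest with 583 ± 55.4 CPM per kb in hypoxia and 449 ± 21.3 in normoxia (mean ± SD, n = 4). Next came Fkbp9, an ER isomerase with repeated FKBP domains, at 294 ± 19.4 and 292 ± 11.3, and then Fkbp10, a collagen chaperone of the ER, at 173 ± 17.8 and 154 ± 8.55. Ppif, the cyclophilin of the mitochondrial matrix, was lowest at 2.84 ± 0.518 and 2.88 ± 0.114 CPM per kb.

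In hypoxia, the middle of the order was Ppib at 119 CPM per kb, Fkbp7 at 86.5, Fkbp11 at 65.5, Ppic at 51.6, Fkbp14 at 38.2 and Ppid at 17.3. The samples of Fkbp11, from 49.5 to 74.1, and of Ppic, from 46.7 to 56.8, overlapped, while every other pair of neighbours in the hypoxia order was separated in all 4 samples. In normoxia, Ppic stood at 114 ± 6.60 CPM per kb, above Fkbp7 at 95.0 ± 5.11 and Ppib at 94.3 ± 6.58, and the samples of Fkbp7 (89.8 to 102) and Ppib (85.5 to 99.6) overlapped. Ppic thus moved from the seventh to the fourth place in this order.

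The place of Ppib in the order depends on how its exons are counted. Of the 892 bases of its principal transcript, 514 (57.6%) lie in exons of Snx22 on the opposite strand, and the strand setting of the counting is not stated. With all its reads divided by the kb not shared, Ppib stood at 281 ± 29.4 in hypoxia and 223 ± 15.5 in normoxia. This is an upper limit, which holds only if no read from the shared bases was counted. Snx22 held 12 counts over all samples against 11148 for Ppib.

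**Figure D1:**
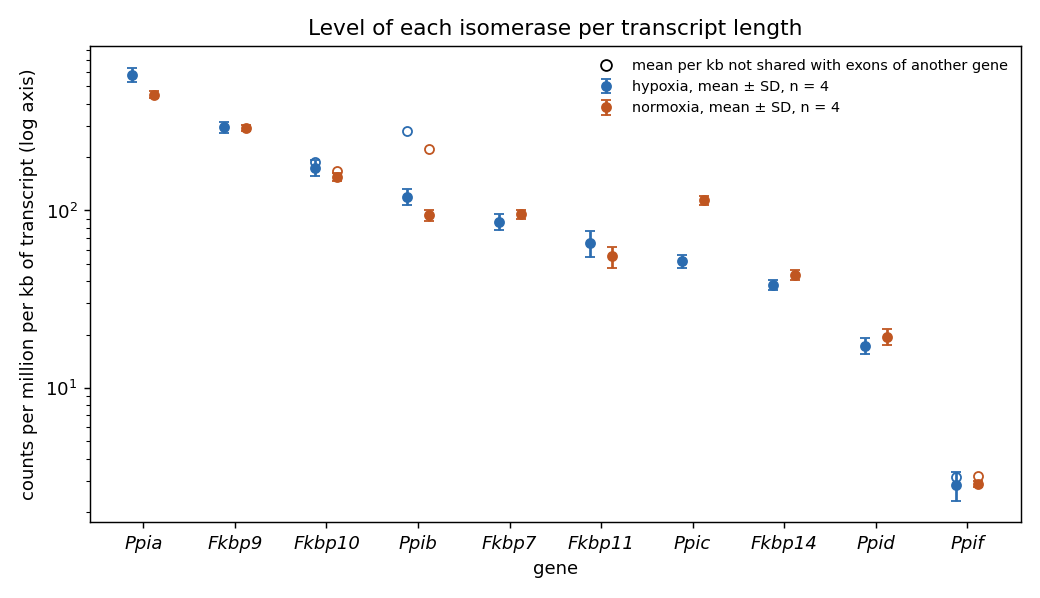
Level of the 10 isomerases in CPM per kb of principal transcript (log axis), ordered by the mean in hypoxia, with mean ± SD of 4 samples per oxygen level. Open circles give the mean with all reads divided by the kb not shared with exons of another gene. Ppia was highest and Ppif lowest in both groups, and Ppic rose in the order from 51.6 to 114 CPM per kb.

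Across all genes tested with limma-trend, 4970 (34.6%) passed an adjusted p of 0.05 in either direction, 18% higher and 16.5% lower in normoxia. With total count normalization in place of TMM, 36.1% passed, 25.1% higher and 11% lower, so the near balance of directions depends on the scaling. Of the 10 members, 3 passed this threshold, Ppic as higher and Ppia and Ppib as lower. The same 3 genes were those whose 4 hypoxia and 4 normoxia values did not overlap, against 32.6% of all genes tested in either direction, 17.1% higher and 15.5% lower. With the replicate number as a block, 6 members passed, Fkbp10 and Fkbp11 lower and Fkbp14 higher in addition, against 46% of all genes, 23.3% higher and 22.7% lower. After the correction for GC content and transcript length, 3 members passed against 30% of all genes, 15.5% higher and 14.5% lower, and with that correction and the block 3 passed against 43.3%, 21.8% higher and 21.5% lower. With total count normalization 5 members passed, Fkbp7 and Fkbp14 higher in addition, where the median change of all genes was 0.09 instead of 0.00. Because the members were chosen with this contrast known, nothing is read from these counts.

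**Figure D2:**
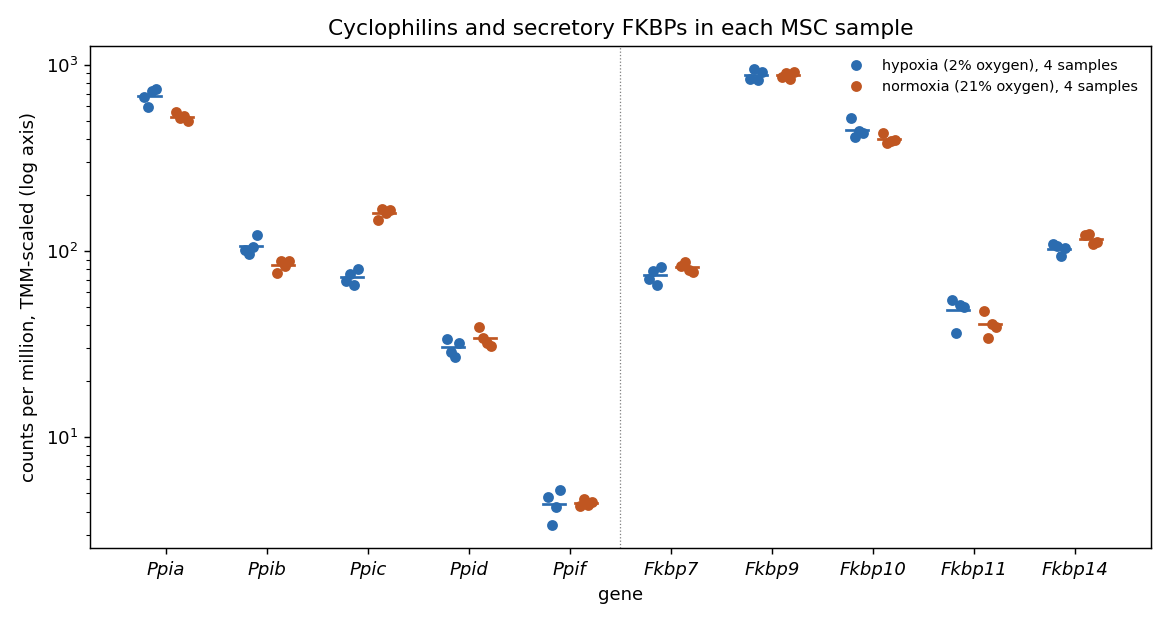
TMM-scaled CPM of each isomerase gene in each of the 4 hypoxia and 4 normoxia samples (log axis), with short lines for group means and cyclophilins left of the dotted line. The groups are apart for Ppia, Ppib and Ppic and overlap for the other 7 genes.

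Ppic encodes cyclophilin C, a cyclophilin of the secretory pathway. Its CPM was 69.3, 75.0, 65.5 and 79.7 in hypoxia replicates 1 to 4 and 148, 168, 159 and 166 in normoxia replicates 1 to 4. Every normoxia sample was above every hypoxia sample, with a mean 2.21-fold higher. The log2 change, normoxia minus hypoxia, was 1.15 (SE 0.071), and 136 of the genes tested (0.946%) passed the threshold and were higher by at least 1 on this scale. Within same-numbered pairs the log2 difference lay between 1.06 and 1.28.

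Ppia binds cyclosporin A, and that complex inhibits the phosphatase calcineurin. Its CPM was 667, 596, 726 and 737 in hypoxia and 559, 515, 528 and 501 in normoxia. The highest normoxia sample was below the lowest hypoxia sample, and the group mean was lower by 22.8% with a log2 change of -0.37 (SE 0.074). The difference was negative in all 4 pairs, from -0.56 to -0.21.

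Ppia has many processed copies in the genome, and reads may be divided among them. By sequence, 29 genes matched its transcripts at 90% identity or more over 300 bases or more, of which 14 held counts, equal to 34.1% of the counts of Ppia (31.9% to 36.9% by sample). Nearly all belonged to the processed pseudogene Gm10123 on chromosome 9 (98.99% identity over 495 bases, 23794 counts), whose log2 change was -0.32 (SE 0.079). With the copies added to it, Ppia had a log2 change of -0.36.

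Ppib, cyclophilin B, is the ER cyclophilin that joins P3h1 and Crtap in the complex that hydroxylates prolines of procollagen. Its CPM was 101, 96.5, 105 and 122 in hypoxia and 76.3, 88.4, 83.1 and 88.9 in normoxia. All normoxia samples were below all hypoxia samples, the mean was lower by 20.8%, and the log2 change was -0.33 (SE 0.079). The difference was negative in all 4 pairs, from -0.46 to -0.13. Genes matching its transcripts by the same rule as for Ppia held counts equal to 5.97% of its own. Most belonged to Sergef, a protein-coding gene on chromosome 7 that matched at 90.7% identity over 431 bases. These may be reads of Sergef itself. With the counts of all such genes added, the log2 change was -0.32.

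The cyclophilins of the secretory pathway thus went opposite ways. Reads of Ppic per read of Ppib were 0.684 ± 0.0669 in hypoxia and 1.91 ± 0.0291 in normoxia (mean ± SD, n = 4), with ranges of 0.623 to 0.777 and 1.87 to 1.93. Ppic made up 2.95% of the reads of the 10 genes in hypoxia and 6.89% in normoxia, and Ppia 27.8% and 22.6%. The summed level of the 10 genes was 2453 ± 76.5 CPM in hypoxia and 2326 ± 42.8 in normoxia.

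Ppid, cyclophilin 40, is a co-chaperone that binds HSP90 in steroid receptor complexes. Its CPM was 33.9, 28.7, 26.9 and 32.0 in hypoxia and 38.9, 34.0, 31.9 and 31.0 in normoxia, and the groups overlapped. The log2 change was 0.16 (SE 0.094), positive in 3 of 4 pairs, and was -0.05 after a correction for GC content and length. Ppif, which promotes opening of the mitochondrial permeability transition pore, had 4.77, 3.37, 4.22 and 5.24 CPM in hypoxia and 4.31, 4.68, 4.33 and 4.52 in normoxia. The hypoxia samples spanned the normoxia samples, with a log2 change of 0.04 (SE 0.15), and its raw counts of 42 to 114 per sample were the fewest of the members.

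Fkbp10 is a chaperone of type I procollagen in the ER. Its CPM was 515, 411, 439 and 428 in hypoxia and 431, 381, 390 and 393 in normoxia, and normoxia replicate 1 lay inside the hypoxia range. The log2 change was -0.17 (SE 0.074), negative in all 4 pairs. After the GC and length correction it was 0.00, with or without the block.

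Fkbp14, an ER isomerase with collagen substrates, had 109, 106, 93.5 and 103 CPM in hypoxia and 121, 124, 108 and 112 in normoxia. Normoxia replicate 3 lay inside the hypoxia range, and the log2 change of 0.18 (SE 0.067) was positive in all 4 pairs. After the GC and length correction it was 0.01.

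Fkbp11 is a membrane-anchored FKBP of the secretory pathway that is abundant in secretory cells. Its CPM was 54.4, 36.3, 51.2 and 50.2 in hypoxia and 47.7, 34.3, 40.6 and 39.1 in normoxia, and replicate 2 was the lowest of both groups. The log2 change was -0.24 (SE 0.13), negative in all 4 pairs, and -0.14 after the GC and length correction.

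Fkbp9 showed the smallest difference of the 10 genes. Its CPM was 841, 951, 830 and 915 in hypoxia and 860, 908, 843 and 910 in normoxia, so that the normoxia values lay within the hypoxia range. The log2 change was -0.00 (SE 0.065). Fkbp7, an ER isomerase with calcium-binding motifs, had 70.4, 78.5, 66.0 and 82.6 CPM in hypoxia and 82.9, 87.3, 79.4 and 77.2 in normoxia. The groups overlapped, and its log2 change of 0.14 (SE 0.076) was positive in 3 of 4 pairs and 0.04 after the GC and length correction.

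**Figure D3:**
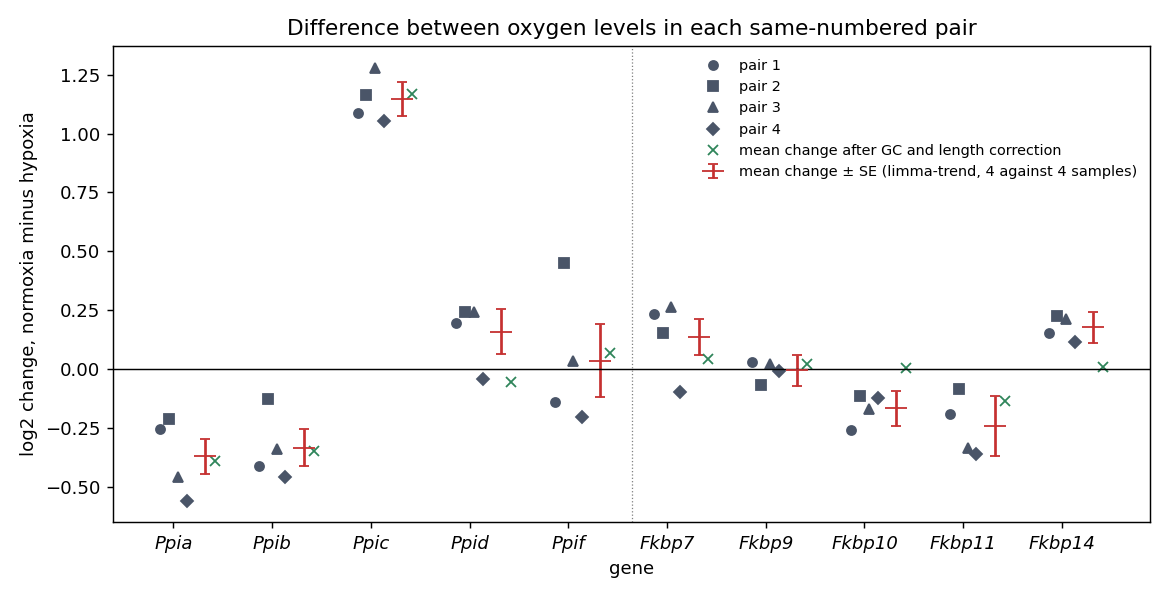
Log2 difference, normoxia minus hypoxia, of each isomerase in same-numbered pairs 1 to 4 (grey symbols), with the mean change ± SE (red) and the mean change after GC and length correction (green crosses). All 4 pairs were on one side of zero for Ppia, Ppib, Ppic, Fkbp10, Fkbp11 and Fkbp14, and the correction brought the last of these to 0.01.

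For each gene, the tested genes with the most similar profile over the 8 samples were found by the root mean square difference of centred log2 CPM. For Ppic these were Fas (0.0995), Zfp638 (0.146) and Palmd (0.147), against a spread of Ppic around its own mean of 0.581. For Ppia they were Gm9843 (0.0285), Rpl36 (0.0286) and Spg21 (0.0304), against a spread of 0.208. For Ppib they were Ndufa2 (0.0447), Mrpl52 (0.0515) and Irf2bp1 (0.0562), against a spread of 0.199. Many genes lay well inside these spreads, 171 for Ppic, 452 for Ppia and 161 for Ppib, so nothing is read from the names.

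Other members of the isomerase families were compared on lists of family membership. Of 24 tested, 6 were higher and 3 lower in normoxia, 9 in all against 34.6% of all genes tested, and 15 passed with the block against 46%. Among the other cyclophilins, 5 of 11 tested were higher, against 18% of all genes tested, and no other passed without the block. With the block 7 were higher and 2, Ppie and Ppih, were lower, against 23.3% and 22.7%. The list median was 0.30 against 0.00 for all genes tested. Ranbp2, a nuclear pore protein with a cyclophilin domain, changed by 0.86 (adjusted p = 8.4e-05), Ppig, a nuclear cyclophilin, by 0.62 (adjusted p = 0.00013), and Ppil4, of the spliceosome, by 0.47 (adjusted p = 0.0014). Nktr (0.41) and Cwc27 (0.30) were the others, and their calls were lost after the GC and length correction, at 0.20 each.

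Among the other FKBPs, 3 of 11 tested were lower, and 4 with the block, against 16.5% and 22.7% of all genes tested. The list median was -0.16. Fkbp2, the small FKBP of the ER and thus the nearest to the secretory members, had 27.9 to 34.7 CPM in hypoxia and 22.6 to 25.2 in normoxia, a change of -0.40 (adjusted p = 0.0028). Fkbp8, a mitochondrial anchored FKBP, changed by -0.26 (adjusted p = 0.0041), and Fkbp1a, the cytosolic target of FK506, by -0.24 (adjusted p = 0.032). All 3 calls were lost after the GC and length correction, with values of -0.12, 0.00 and -0.10.

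**Figure D4:**
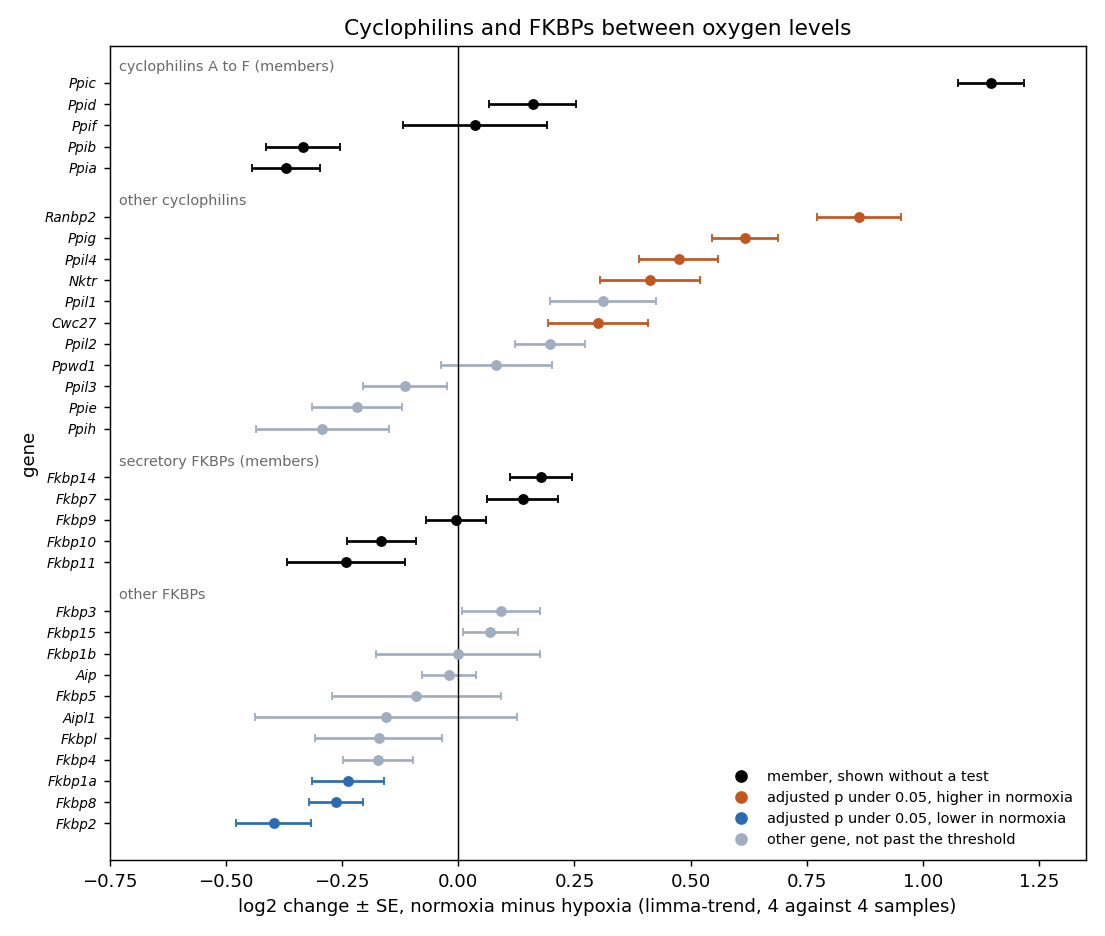
Log2 change ± SE, normoxia minus hypoxia, of the tested cyclophilins and FKBPs, with the 10 members in black and other genes coloured by limma-trend's adjusted p. Ppic at 1.15 and Ranbp2 at 0.86 lie farthest to the right, and Fkbp2 at -0.40 farthest to the left.

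Known partners of the isomerases were compared from lists based on textbook knowledge. Of 58 tested, 20 were higher and 12 lower, or 27 and 5 with total count normalization. Of all genes tested, 18% were higher and 16.5% lower, or 25.1% and 11% with that normalization, and 23.3% and 22.7% with the block. Of 13 procollagen-modifying genes that work beside Ppib and Fkbp10, 3 were higher and 3 lower, and 5 and 5 with the block. Plod2, the lysyl hydroxylase of collagen telopeptides, changed by 0.61 (adjusted p = 0.00043), P3h3 by 0.24 and P3h1 by 0.22. P3h2 changed by -0.51, Plod1 by -0.42 and Crtap by -0.20, so P3h1 and Crtap, the partners of Ppib, differed in direction, and the Crtap call was lost after the GC and length correction at -0.00.

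Of 12 ER chaperones and disulfide isomerases, 9 were higher, and 10 with the block, against 18% and 23.3% of all genes tested. The list median was 0.30, while Ppib, of the same compartment, was lower. Hspa5, the ER HSP70, changed by 0.68 (adjusted p = 3.8e-05), Hsp90b1 by 0.62 (adjusted p = 0.00039) and Dnajc3 by 0.55 (adjusted p = 0.00046). After the GC and length correction 8 were higher, the Canx call was lost at 0.04 and Ero1l passed as lower at -0.31. Of all genes, 15.5% were then higher and 14.5% lower. Of 11 HSP90 and co-chaperone genes, the partners of Ppid, 6 were higher, led by Stip1 at 0.66, Hsp90aa1 at 0.61 and Ptges3 at 0.31, a call lost after the GC and length correction at 0.17. With the block 8 were higher and 1, Stub1, was lower.

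Of 11 genes of or near the permeability pore, the partners of Ppif, 4 were lower, with Atp5o at -0.46, Vdac3 at -0.28, Slc25a4 at -0.23, a call lost with total count normalization at -0.15, and Vdac1 at -0.22, which no longer passed after the GC and length correction at -0.17. With the block 7 were lower and 1, Hspd1, was higher. Of all genes tested, 18% were higher and 16.5% lower, or 23.3% and 22.7% with the block. Of 11 genes of the calcineurin axis and the cyclophilin A receptor, 2 were higher, Rcan1 at 0.36 and Ppp3ca at 0.34, and 5 were lower, Nfatc2 at -0.94, Rcan2 at -0.33, Nfatc3 at -0.26, Bsg, the receptor basigin, at -0.18, and Ppp3cb at -0.16. After the GC and length correction Bsg stood at 0.03 and no longer passed. The Nfatc2 call was lost with limma-voom, total count normalization or the GC and length correction.

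**Figure D5:**
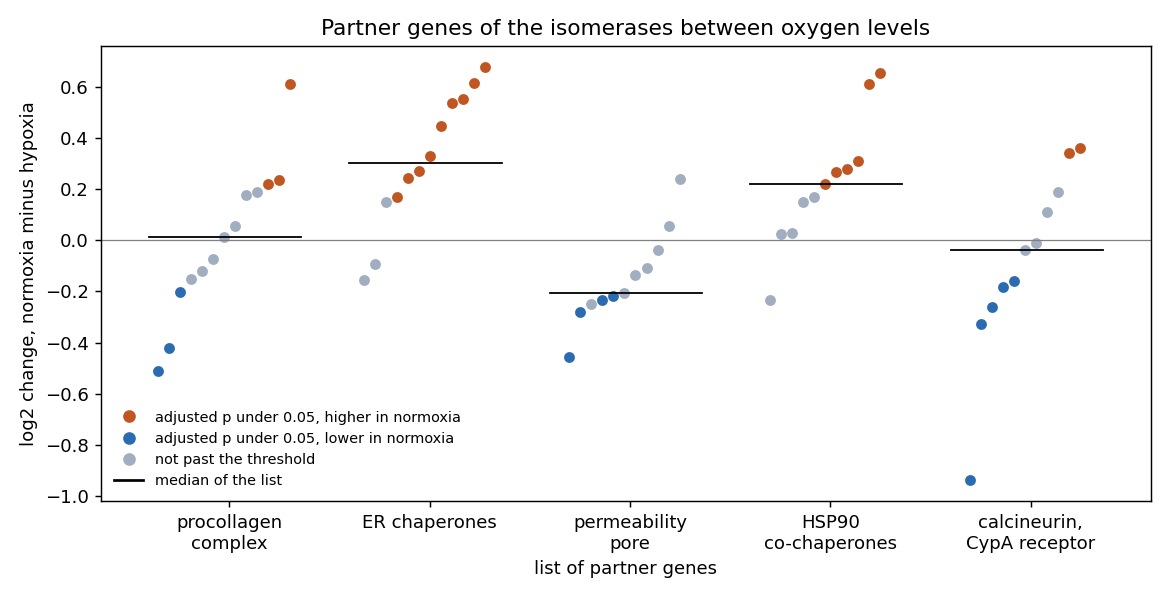
Log2 change, normoxia minus hypoxia, of each tested partner gene in 5 lists, coloured by limma-trend's adjusted p, with a line at each list's median. The lines for ER chaperones (0.30) and HSP90 co-chaperones (0.22) lie above zero and that of the permeability pore (-0.21) below.

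Total counts were 12898291 to 13433824 in 7 samples and 25132141 in hypoxia replicate 1. All 9 MSC markers held counts, with summed levels of 3034 to 3536 CPM in hypoxia and 3429 to 4006 in normoxia. Of the 9, Itgb1 (0.44), Cd44 (0.72) and Nt5e were higher and Eng (-0.27) lower, and 5 had negative changes. The sort markers Ly6a and Pdgfra had log2 changes of -0.14 and 0.24, neither past the threshold. Macrophage and blood markers, all 7 tested, summed to 512 to 1040 CPM and 610 to 1144 CPM despite the CD45- gate. Lyz2 (0.56) was higher and C1qa (-0.77) lower, and 5 of the 7 had negative changes. Chondrocyte markers summed to 4905 to 6648 CPM in hypoxia and 3993 to 4773 in normoxia, and osteoblast markers to 240 to 287 and 155 to 212. These sums did not overlap between groups, as was so for 32.6% of single genes tested. Most of the chondrocyte sum was Comp (3785 to 5742 CPM in hypoxia), at -0.35 and not past the threshold. Col2a1 (-0.33) and Sox9 (-0.58) were lower, and Acan stood at 0.29. All 5 osteoblast markers tested had negative changes, of which 3 passed. Endothelial, erythroid, plasma cell and adipocyte markers summed to at most 5.16 CPM in any sample, with Hbb-bs, Mzb1 and Lep at 0. The part of these cell types in the isomerase levels was not tested, and in bulk RNA fewer cells of a type and less RNA per cell cannot be told apart.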

How the data were processed

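RNA-seq counts of 8 samples, 4 per oxygen level, were used as the authors deposited them, as raw counts per gene. Per the study's methods, single-end reads were mapped to mm10 with STAR and counted with featureCounts within zUMIs on Ensembl annotation; strand and multi-mapping settings are not stated, so genes with near-identical copies or overlapping antisense genes are uncertain. Symbols, positions and lengths came from GENCODE M21 (GRCm38), which paired 53360 of 53465 identifiers with a symbol.

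A minimum count of 5 in filterByExpr (edgeR 4.0.16) set which genes were tested. Counts were scaled with TMM and compared on log2 CPM (prior count 3) with limma-trend in limma 3.58.1 and Benjamini-Hochberg adjustment over 14369 genes, at a threshold of 0.05. CPM values printed are TMM-scaled. A gene with 3 counts or fewer in a sample, 0.125 to 0.241 CPM depending on depth, is at the floor; intervals of counting error alone are not used. DESeq2 1.42.0 and edgeR's quasi-likelihood test were alternatives, as were limma-voom, other scaling, no filter, prior count 1, a spline correction for GC content and transcript length (5 degrees of freedom), the replicate block and leaving out each of 8 samples. Same-numbered samples are shown as pairs, since the sorted population was divided, though the labels do not tie the numbers to animals. The correlation of same-numbered deviations from group means was 0.47, 0.28, 0.25 and 0.17. None was computed for differently numbered samples, so these values have no baseline. The fit as reported and the printed SE do not use the pairs, and the fits with the replicate block do. The scripts were tested on simulated counts with known changes. Near-identical copies were searched with blastn 2.17.0.

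The members and lists were chosen with earlier results of these data known. Named were every member, Fkbp2, and in each other list up to 3 called genes per direction with the largest change. Also named were the 3 nearest profiles of a member (given for Ppic, Ppia and Ppib). Genes matching a member's transcripts and holding at least 1% of its counts were named too. Nktr, Cwc27, Vdac1, Bsg, Ppp3cb, Ppie, Ppih, Stub1, Hspd1, Canx, Ero1l and the marker genes named were added after their values were seen. Some members of the isomerase and marker lists are counted but not reported by name here.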

Additional observations from a re-analysis of the deposited data

Results flagged for a closer look

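Of 22 sets of 4 values searched, the levels of the 10 isomerases and the total counts in each oxygen group, 1 held a sample far from the others. Hypoxia replicate 1 had 25132141 total counts, against 12929564 to 13219647 in the other 3 hypoxia samples, a gap of 0.976 of the group's range, above Dixon's critical value. Chance alone flags about 1 in 20 such sets, or 1.1 of 22. No level of an isomerase was flagged. Without this replicate Fkbp14 passed the threshold as well, at 4 members in all.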

How the results depend on the processing

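Over 20 alternatives the log2 changes of Ppia, Ppib and Ppic, a description since these genes were chosen on this contrast, lay at -0.43 to -0.28, -0.38 to -0.25 and 1.10 to 1.24. The count of members past the threshold was 3 with the fit as reported, 6 with the replicate block and 5 with total count normalization, where Fkbp7 and Fkbp14 were added and, over all genes, 3611 were higher and 1575 lower against 2592 and 2378 with TMM. Leaving out one sample gave 3 or 4 members, with Fkbp14 added without hypoxia replicate 1 and Fkbp11 without hypoxia replicate 2. Of the other peptidyl-prolyl isomerases, 9 passed as reported and 15 with the replicate block, and leaving out one sample gave 6 to 10. Over all genes these gave 3838 to 5423 calls, and for the partner genes 24 to 36. The block removed no call of a gene named. Fkbp8 turned from -0.26 to 0.0025 under the GC and length correction and under the replicate block with that correction, and Ppid, Fkbp10 and Fkbp14 then stood at -0.05, 0.00 and 0.01. The cause of these moves was not tested. Single samples decided calls near the threshold. Leaving out one sample ended the calls of Fkbp1a (-0.30 to -0.17 over all 8), P3h2 (-0.66 to -0.43), P3h3 (0.19 to 0.30), Rcan1 (0.23 to 0.43) and Nfatc2 (-1.16 to -0.67), in 4 or 5 of 8 cases each, and those of P3h1 (0.20) and Crtap (-0.19) without normoxia replicate 3. Over all alternatives, 49 single-gene values kept their direction and lost the threshold. Ppif, with 42 to 114 counts per sample, is limited by depth.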
